A study of Mus musculus with 30 samples.

Results

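Acute-phase proteins are secreted proteins whose levels in blood shift with inflammation or injury, and most of them are made by the liver, with adipose tissue as a further source of several. Cytokines of the interleukin-6 family, acting through STAT3, and interleukin-1, acting through NF-kB, switch their genes on, and glucocorticoids often strengthen that response. The genes described here are Serpina3c, Serpina3g, Serpina3m and Serpina3n, which encode serine protease inhibitors of 1 cluster on mouse chromosome 12, Lcn2, which encodes the iron-siderophore carrier lipocalin 2, Lrg1, which encodes leucine-rich alpha-2-glycoprotein, and Itih4, which encodes a heavy chain of the inter-alpha-trypsin inhibitor family. The 7 genes were chosen by their RPKM levels and differences in these same 8 libraries, among secreted acute-phase proteins, so their own values are given below as a description, with no test. Of the 7 listed genes 6 were matched to an entry of the deposited tables, out of 23109 genes or unmatched entries in all. Serpina3g was not matched and is not analysed here.

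RNA sequencing had been done on brown preadipocytes immortalised with the SV40 T antigen (SV40T). They came from interscapular brown fat of newborn GRf/f pups of the strain C57BL/6J, in which loxP sites flank part of both alleles of Nr3c1, the gene of the glucocorticoid receptor. A retrovirus carrying Cre recombinase gave the receptor knockout cells (Cre), and the control retrovirus (Vec) gave the wild-type cells. Both carry the floxed alleles and the SV40 T antigen, and both are cultures of this single immortalised cell preparation, so no other line stands beside them. The groups are Cre D0 and Vec D0 (confluent cells before induction), Cre 4h and Vec 4h (4 hours after it), Cre D2 and Vec D2 (day 2), and Cre D7 and Vec D7 (day 7), with 1 library each. Induction used 2 μg/ml dexamethasone, which binds and activates this receptor, with insulin at 0.02 μM, T3 at 1 nM, IBMX at 0.5 mM and indomethacin at 0.125 mM, in both genotypes. The labels give an induction time of 4 hours for the 4h, D2 and D7 cultures alike. The sources used here do not say which media followed. No culture without the mix was sampled at 4h, so its effect and that of elapsed time cannot be told apart.

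The 8 libraries held 7.7 to 28.9 M reads, the fewest in Cre 4h and 12.3 M in Vec 4h, and 11471 to 12176 genes reached 1 RPKM in each. RPKM is the number of reads scaled to transcript length in kilobases and to M reads of the library. Nr3c1 was lower in Cre at all 4 times, at 4.81, 4.04, 8.07 and 6.67 RPKM in Cre D0, 4h, D2 and D7, against 24.3, 12.9, 21.3 and 32.1 RPKM in Vec. The tables give reads per transcript and not per exon, so reads outside the deleted part are included. Markers of the labelled cells were present: all 5 preadipocyte markers (Pdgfra, Pdgfrb, Col1a1, Col3a1 and Thy1) stood above 1 RPKM in every library, and all 6 adipocyte markers (Adipoq, Plin1, Fabp4, Pparg, Cidec and Lpl) did so in the D2 and D7 libraries. Of 6 hepatocyte markers 0 reached 1 RPKM in any library, and their summed level ran from 0.569 to 1.05 RPKM. These are whole cultures, in which fewer cells of a type and less RNA per cell cannot be told apart. Intervals below are 95% intervals of counting error alone, since no group has a replicate.

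Promoter sequences are shown for the 5 of 6 genes that the RefSeq promoter table holds (assembly GRCm38.p6). Among these, Serpina3n and Serpina3c share a sequence and Lrg1 and Itih4 a time course, but neither pair shares both. Serpina3m, whose time course is near that of Serpina3n, has no window there and was not compared. Each window runs 250 bases before to 50 bases after the annotated start, 5′ to 3′ on the gene's strand. Serpina3n and Serpina3c are first, as the pair with near-identical windows. The capitals mark AGAACA, the hexamer that one monomer of the glucocorticoid receptor contacts, and in Serpina3c also TATAAA, the TATA box motif.
Serpina3n, chr12:104406458-104406757, plus strand: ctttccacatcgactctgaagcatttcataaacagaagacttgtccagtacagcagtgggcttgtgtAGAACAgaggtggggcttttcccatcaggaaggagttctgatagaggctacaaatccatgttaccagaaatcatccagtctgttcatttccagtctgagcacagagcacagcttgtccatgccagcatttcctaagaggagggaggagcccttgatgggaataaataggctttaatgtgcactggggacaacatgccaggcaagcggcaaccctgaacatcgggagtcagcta
Serpina3c, chr12:104153823-104154122, minus strand: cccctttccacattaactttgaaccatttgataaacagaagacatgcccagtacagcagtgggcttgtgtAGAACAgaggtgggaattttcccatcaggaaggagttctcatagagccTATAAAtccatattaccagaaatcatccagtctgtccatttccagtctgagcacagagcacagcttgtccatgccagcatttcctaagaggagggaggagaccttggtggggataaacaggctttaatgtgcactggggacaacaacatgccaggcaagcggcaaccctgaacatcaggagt
These windows aligned over 294 bases, of which 275 (93.5%) were identical and 19 differed. The hexamer began 183 bases before the start in Serpina3n and 180 bases before it in Serpina3c. The TATA motif of Serpina3c, 132 bases before its start, was not found in the window of Serpina3n.

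Lrg1 and Itih4, whose time courses are described below as near-parallel, have windows with little in common. The capitals mark TATAAA in Lrg1, and in Itih4 TTCCGAGAA, a match to the STAT motif TTCNNNGAA, and TTTATA, the TATA motif on the other strand.
Lrg1, chr17:56121897-56122196, minus strand: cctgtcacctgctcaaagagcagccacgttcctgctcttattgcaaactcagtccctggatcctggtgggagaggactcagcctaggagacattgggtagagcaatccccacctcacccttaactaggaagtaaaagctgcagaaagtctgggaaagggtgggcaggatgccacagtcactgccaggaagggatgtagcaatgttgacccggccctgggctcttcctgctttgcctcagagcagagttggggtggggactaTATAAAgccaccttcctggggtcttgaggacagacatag
Itih4, chr14:30886226-30886525, plus strand: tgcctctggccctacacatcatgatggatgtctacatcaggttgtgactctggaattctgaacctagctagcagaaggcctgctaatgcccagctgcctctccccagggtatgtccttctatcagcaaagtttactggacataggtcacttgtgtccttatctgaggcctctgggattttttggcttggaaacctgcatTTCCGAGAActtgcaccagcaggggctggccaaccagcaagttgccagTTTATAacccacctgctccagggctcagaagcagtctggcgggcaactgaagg
Over the 200 bases that aligned between them, 72.5% were identical, within the 71.4 to 79.2% of the pairs other than Serpina3n with Serpina3c. The STAT match lay 51 to 43 bases before the start of Itih4. The TATA motif of Lrg1 lay after its annotated start, at bases 12 to 17. That of Itih4 lay across the start, from 3 bases before it to base 3 after it. The window of Lcn2, whose time course is that of neither pair, follows, with capitals for TTGCTCAA, which matches the C/EBP motif TTNNGCAA on the opposite strand.
Lcn2, chr2:32387690-32387989, minus strand: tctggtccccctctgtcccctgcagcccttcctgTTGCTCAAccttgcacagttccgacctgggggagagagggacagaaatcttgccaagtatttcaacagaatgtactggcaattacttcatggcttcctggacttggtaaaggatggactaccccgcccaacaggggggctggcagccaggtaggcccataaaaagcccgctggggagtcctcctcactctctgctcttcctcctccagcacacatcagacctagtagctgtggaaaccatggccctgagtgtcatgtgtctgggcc
Motifs were searched on both strands, and no marked motif overlapped another. Of all 32851 promoter windows of this length, 19.0% held the hexamer AGAACA, 10.8% the C/EBP motif, 8.30% the STAT motif and 13.6% the TATA motif. The full glucocorticoid response element, AGAACA and TGTTCT with 3 bases between them, was in 0.00913% of all windows and in 0 of the 5, and the 5 held 0 matches to the NF-kB motif, GGGA and TCC with 3 bases between them (4.59% of all windows), to the cAMP response element TGACGTCA (1.79%) and to the DR1 element, AGGNCA repeated after 1 base (0.381%). A match is a description of letters and not a binding site, and no match says only that these letters are not in this window.

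Over time the 6 genes fell into an early and a late pattern. Serpina3n and Serpina3m had their highest level in Vec 4h and Lcn2 in Vec D2, and all 3 were low again at D7. Serpina3c, Lrg1 and Itih4 had theirs in Vec D7. In each of the 6 genes the highest of the 8 libraries was a Vec library, and the Cre library of the same time was lower.

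**Figure D1:**
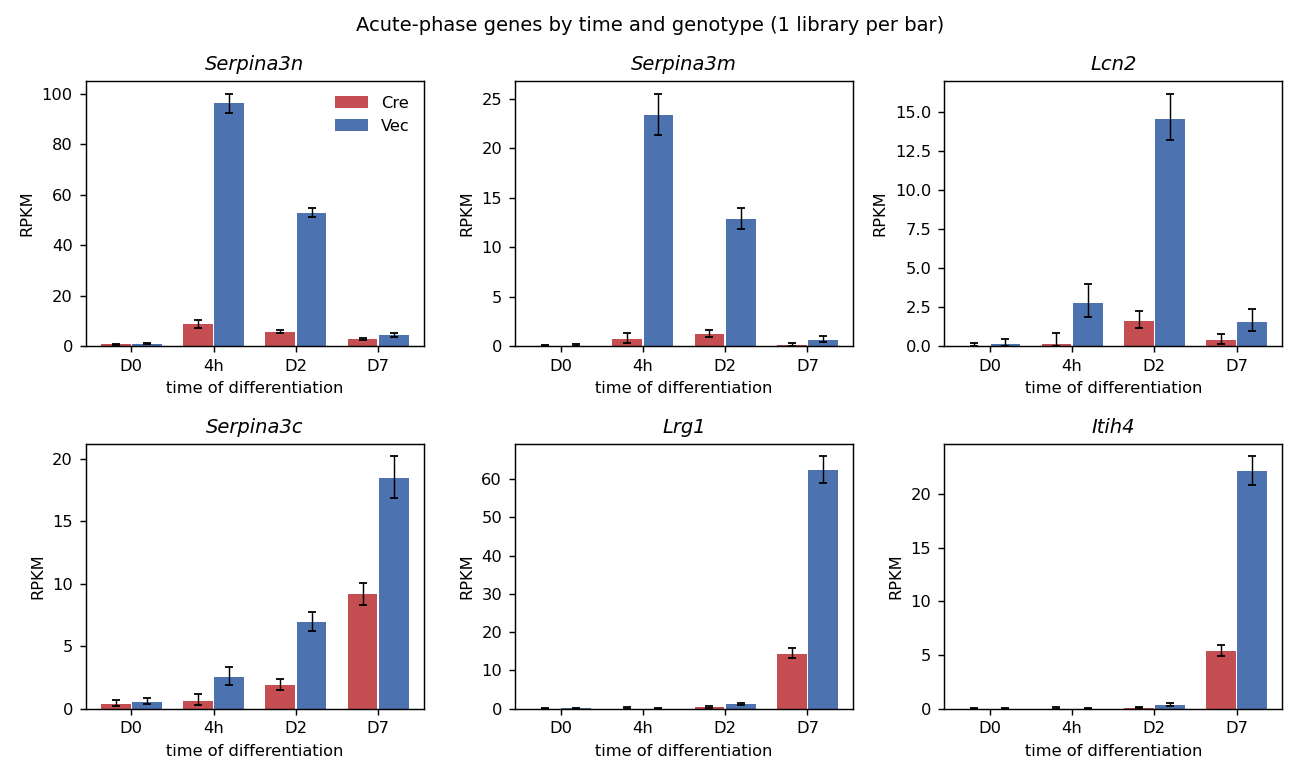
RPKM of the 6 matched genes (vertical axes, each with its own scale) at D0, 4h, D2 and D7, with Cre bars left of Vec bars; each bar is 1 library and its whisker the 95% exact Poisson interval of counting error. Serpina3n reaches 96.2 RPKM in Vec 4h and Lrg1 62.4 RPKM in Vec D7, while the Cre bars beside them stand at 8.65 and 14.4 RPKM.

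Serpina3n encodes a secreted protease inhibitor, related to human alpha-1-antichymotrypsin, that blocks leukocyte proteases. In Cre it stood at 0.697, 8.65, 5.70 and 2.87 RPKM at D0, 4h, D2 and D7 (35, 139, 315 and 148 reads). In Vec it stood at 0.919, 96.2, 52.9 and 4.39 RPKM (45, 2460, 3184 and 139 reads). Vec 4h and Vec D2 thus lie far above the other 6 libraries, whose highest value is that of Cre 4h. In the order of levels, Cre D2 and Vec D7 had overlapping counting intervals (5.08 to 6.36 and 3.69 to 5.19 RPKM), as did Vec D0 and Cre D0, and no other neighbours overlapped.

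Serpina3m, a neighbour of Serpina3n in the cluster, encodes a similar inhibitor. It had 0.025, 0.704, 1.27 and 0.122 RPKM in Cre at D0, 4h, D2 and D7, from 1, 9, 56 and 5 reads. Vec had 0.0513, 23.3, 12.8 and 0.635 RPKM, from 2, 474, 613 and 16 reads. Again only Vec 4h and Vec D2 stood out. Cre D2, Cre 4h and Vec D7 followed with overlapping neighbours, and Cre D7 and both D0 libraries came last, at 5 reads or fewer.

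Lcn2 encodes lipocalin 2, which withholds iron from bacteria by binding their siderophores. Cre had 0, 0.152, 1.64 and 0.38 RPKM at D0, 4h, D2 and D7, from 0, 1, 37 and 8 reads. Vec had 0.15, 2.77, 14.6 and 1.54 RPKM, from 3, 29, 360 and 20 reads. Vec D2 stood alone at the top, and Vec 4h, Cre D2 and Vec D7 formed the next group, each overlapping its neighbour in that order. The 0 reads of Cre D0 allow up to 0.146 RPKM, at 3 reads. Neutrophils store much Lcn2, and of 6 neutrophil markers 0 reached 1 RPKM at D2, where their sums were 0.221 RPKM in Cre and 0.813 RPKM in Vec. In Cre D2 4 of the 6 (S100a8, S100a9, Elane and Mpo) had 0 reads, and in Vec D2 S100a9 and Ngp had 0, while Camp led with 0.521 RPKM. At D7, where Lcn2 was lower again, the sums were 2.3 RPKM in Cre and 3.95 RPKM in Vec, led by Elane at 1.32 RPKM in Cre and 2.08 RPKM in Vec. Camp followed at 0.946 RPKM in Cre and 1.87 RPKM in Vec. S100a8, S100a9 and Mpo had 0 reads in both D7 libraries, and Ngp had 1 read in Cre and 0 in Vec. The part of these markers in the Lcn2 levels was not tested.

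Serpina3c, from the same cluster, encodes another related inhibitor and had the late pattern. Its levels in Cre were 0.417, 0.614, 1.92 and 9.17 RPKM at D0, 4h, D2 and D7 (17, 8, 86 and 383 reads). In Vec they were 0.554, 2.56, 6.97 and 18.5 RPKM (22, 53, 340 and 474 reads). Vec was higher at each later time than at the one before it, with no overlap of the counting intervals. In Cre the intervals of D0 and 4h overlapped, and D2 and D7 lay above them. Vec 4h and Cre D2 overlapped as well (1.92 to 3.35 and 1.53 to 2.37 RPKM).

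Lrg1 encodes a secreted glycoprotein that modifies TGF-beta signalling in endothelial cells. It had 0.0613, 0, 0.502 and 14.4 RPKM in Cre at D0, 4h, D2 and D7 (2, 0, 18 and 483 reads). In Vec it had 0.0944, 0.0603, 1.23 and 62.4 RPKM (3, 1, 48 and 1281 reads). Both D7 libraries lay above all others, and Vec D7 above Cre D7. The 4 libraries of D0 and 4h held at most 3 reads each and were not distinguishable from each other at this depth.

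Itih4 encodes a plasma protein that plasma kallikrein cleaves. It had 0.0132, 0, 0.108 and 5.39 RPKM in Cre at D0, 4h, D2 and D7 (1, 0, 9 and 419 reads). In Vec it had 0, 0, 0.397 and 22.1 RPKM (0, 0, 36 and 1056 reads). Of the 4 libraries of D0 and 4h only Cre D0 held a read, a single one. The zeros of Cre 4h, Vec D0 and Vec 4h allow up to 0.124, 0.0406 and 0.0778 RPKM at 3 reads.

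Cre was set against Vec at each time, 1 library against 1, as a description of how these cultures differ. Serpina3n and Serpina3m were strongly lower in Cre at 4h and D2, as was Lcn2 at D2. Lcn2 at 4h and Serpina3c at both of these times were lower, and Lrg1 and Itih4 were strongly lower at D7. Before induction none of the 6 stood apart: at D0 the differences in log2(RPKM + 1), Cre minus Vec, ran from -0.20 for Lcn2 to 0.02 for Itih4, and all 6 genes were under 1 RPKM in both libraries. A gene was counted as lower or higher when that difference was at least 1 and when at least 1 RPKM was reached in at least 1 of both libraries. By this rule 0 of the 6 were lower in Cre at D0 (0.275% of all 12007 genes were), 4 at 4h (2.59% of 11897), 4 at D2 (1.54% of 11918) and 2 at D7 (3.12% of 12480). Higher in Cre were 0 of the 6 at each time, against 0.158%, 1.65%, 2.55% and 1.39% of all genes at D0, 4h, D2 and D7. These contrasts were known when the genes were listed, so nothing is read from the counts.

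At 4h Cre held 8.99% of the Vec level of Serpina3n (7.52 to 10.7%) and 3.02% of that of Serpina3m (1.37 to 5.78%). The differences in log2(RPKM + 1), Cre minus Vec, were -3.33 and -3.83, ranks 6 and 2 from the most negative of 11897 genes. Lcn2 in Cre 4h stood at 5.49% of Vec 4h, with a wide interval of 0.134 to 33.1%, since Cre 4h had 1 read (difference -1.71). Serpina3c stood at 24.0% (9.86 to 50.8%, difference -1.14). Of the 6 genes, Lrg1 and Itih4 had at most 1 read at 4h, too few for a difference to be detectable at this depth. Cre 4h is the shallowest library, and a depth of 7.7 M reads sets these wide intervals. The median difference of all genes at 4h was 0.11, with a 5th and 95th percentile of -0.62 and 0.65.

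At D2 the same 4 genes were lower in Cre. Serpina3n held 10.8% of its Vec level in Cre (9.56 to 12.1%), Serpina3m 9.94% (7.42 to 13.1%) and Lcn2 11.2% (7.75 to 15.7%). Their differences in log2(RPKM + 1) were -3.01, -2.60 and -2.57, ranks 7, 15 and 16 from the most negative of 11918 genes. The intervals of these 3 shares overlap. Serpina3c held 27.5% (21.5 to 35.0%, difference -1.45), and its interval lies above those of the other 3. Lrg1 and Itih4 were still low at D2, and Cre held 40.8% (22.3 to 71.5%) and 27.2% (11.5 to 57.6%) of their Vec levels, with differences of -0.57 and -0.33. All genes had a median difference of -0.04 at D2, with a 5th and 95th percentile of -0.60 and 0.75. At D2 the preadipocyte markers summed to 1319 RPKM in Cre and 595 RPKM in Vec, and the adipocyte markers to 1911 RPKM in Cre and 2158 RPKM in Vec. Fabp4, Lpl, Pparg and Cidec were lower in Cre D2, whereas Adipoq (144 RPKM in Cre, 59.7 RPKM in Vec) and Plin1 (50.5 RPKM in Cre, 33.0 RPKM in Vec) were higher. The part of the cultures' makeup in these differences was not tested.

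At D7 Lrg1 and Itih4 had the most negative differences of the 6 genes in log2(RPKM + 1), a scale that understates changes of low genes. Cre held 23.2% of the Vec level of Lrg1 (20.8 to 25.7%) and 24.4% of that of Itih4 (21.7 to 27.3%), with differences of -2.04 and -1.86 and ranks 15 and 32 from the most negative of 12480 genes. The 2 shares cannot be told apart within their counting error. Serpina3c held 49.6% (43.3 to 56.9%, difference -0.94) and Serpina3n 65.4% (51.5 to 83.0%, difference -0.48). Lcn2 held 24.6% (9.36 to 58.2%) and Serpina3m 19.2% (5.5 to 54.8%), both from 20 reads or fewer in each library, with differences of -0.88 and -0.54. The median difference of all genes was 0.03, with a 5th and 95th percentile of -0.81 and 0.68. At D7 all 6 adipocyte markers were lower in Cre, with a sum of 1629.5 RPKM in Cre and 4515 RPKM in Vec, and the preadipocyte markers summed to 2433 RPKM in Cre and 1326 RPKM in Vec. Fabp4, for example, had 786 RPKM in Cre D7 and 2304 RPKM in Vec D7. The part of this in the D7 differences of Lrg1 and Itih4 was not tested.

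**Figure D2:**
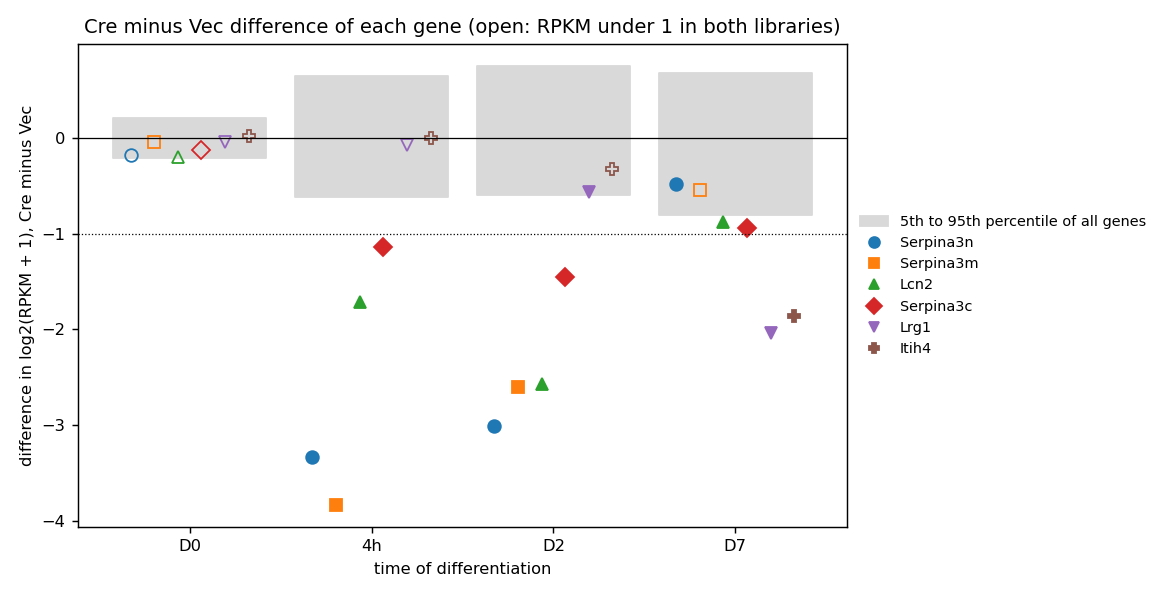
Difference in log2(RPKM + 1), Cre minus Vec (vertical axis), of the 6 genes at each time, 1 library per genotype and time; grey bands span the 5th to the 95th percentile of all genes, the dotted line marks the size rule, and open symbols are genes under 1 RPKM in both libraries. Serpina3n and Serpina3m lie at -3.33 and -3.83 at 4h and inside the band at D7, where Lrg1 and Itih4 lie at -2.04 and -1.86.

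The steps between times were compared within each genotype. Neighbouring steps share a library, so they are not independent of each other. In the first step Serpina3n was 12.4-fold higher at 4h than at D0 in Cre (8.52 to 18.5) and 105-fold higher in Vec (78.1 to 144). The differences in log2(RPKM + 1), 4h minus D0, were 2.51 in Cre, rank 35 from the most positive of 12176 genes, and 5.66 in Vec, rank 2 of 12159. Serpina3n was thus higher at 4h than at D0 in both genotypes, by a smaller fold in Cre. Serpina3m was 28.1-fold higher at 4h in Cre, from 9 reads against 1 (3.90 to 1234), and 454-fold higher in Vec, from 474 reads against 2 (125 to 3761). Lcn2 was 18.5-fold higher at 4h in Vec (5.74 to 95) and had 1 read at 4h against 0 at D0 in Cre. Serpina3c was 4.62-fold higher in Vec (2.76 to 7.97), and in Cre its ratio of 1.47 (0.550 to 3.60) could not be told from 1. By the size rule 1 of the 6 genes was higher at 4h than at D0 in Cre (3.67% of all genes) and 4 in Vec (5.52%), and 0 were lower in either (3.69% and 8.04%).

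Between 4h and D2 the early genes parted. Serpina3n at D2 stood at 65.8% of its 4h level in Cre (53.8 to 81.0%) and at 55.0% in Vec (52.1 to 58.0%). Serpina3m stood at 54.9% in Vec (48.6 to 62.1%), the same share as Serpina3n within counting error, whereas its ratio in Cre was 1.81 (0.888 to 4.16). Lcn2 moved the other way, to 10.8-fold of its 4h level in Cre (1.81 to 436) and 5.27-fold in Vec (3.61 to 7.99). Serpina3c was 3.12-fold higher at D2 in Cre (1.52 to 7.47) and 2.72-fold higher in Vec (2.04 to 3.71), and Lrg1 was 20.4-fold higher in Vec, from 48 reads against 1 (3.49 to 822). Higher at D2 than at 4h by the size rule were 1 of the 6 in Cre (5.92% of all genes) and 3 in Vec (10.2%), and 0 were lower in either (7.28% and 9.74%). The 2 Vec differences of Serpina3n and Serpina3m, -0.85 and -0.82, reach -1.05 and -1.01 with TMM scaling, which makes both count as lower.

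Between D2 and D7 the early genes gave way to the late ones. In Vec, D7 held 8.30% of the D2 level of Serpina3n (6.95 to 9.84%), 4.96% of that of Serpina3m (2.82 to 8.13%) and 10.6% of that of Lcn2 (6.38 to 16.6%). These changes had ranks 5, 7 and 15 from the most negative of 12321 genes. In Cre, D7 held 50.4% (41.2 to 61.5%), 9.58% (3.00 to 23.7%) and 23.2% (9.34 to 50.6%) of their D2 levels. Lrg1 was 28.8-fold higher at D7 than at D2 in Cre (18.0 to 49.0) and 50.8-fold higher in Vec (38.1 to 69.2). Itih4 was 55.8-fold higher in Vec (40.0 to 80.1), and its interval in Cre, 26.1 to 110.0, overlaps this one. Serpina3c was 4.78-fold higher in Cre (3.77 to 6.11) and 2.65-fold higher in Vec (2.30 to 3.06), so that its intervals do not overlap and the larger fold is that of Cre. By the size rule 3 genes were higher in both genotypes (7.41% of all genes in Cre and 9.81% in Vec), while 1 was lower in Cre (2.07%) and 3 in Vec (5.01%). The 1 in Cre is Serpina3m, at -1.02, and with TMM or median of ratios scaling, a pseudocount of 5 or a filter at 5 RPKM 0 were lower.

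Over the whole course, Serpina3n in D7 was still 4.12-fold above D0 in Cre (2.84 to 6.14) and 4.78-fold above it in Vec (3.39 to 6.85). Itih4 was 409-fold higher at D7 in Cre, from 419 reads against 1 (72.9 to 16178), and at least 545-fold higher in Vec, from 1056 reads against 0, with D0 set to the floor of 3 reads. Lrg1 was 236-fold higher at D7 than at D0 in Cre (64.8 to 1950.4) and 661-fold higher in Vec (226 to 3209.9). By the size rule 4 of the 6 genes were higher at D7 than at D0 in Cre (4.53% of all genes) and 5 in Vec (8.55%), and 0 were lower in either (0.701% and 4.62%). At D2 4 were higher than at D0 in Cre (5.04%) and 5 in Vec (8.9%), and 0 were lower in either (7.59% and 12.1%).

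The 3 matched Serpina3 genes were set beside the rest of their cluster, in which Serpina3a, b, c, f, g, h, i, j, k, m and n follow one another along chromosome 12. Of these 11 genes 10 were matched. Their summed level was 2.35, 11.1, 9.39 and 14.5 RPKM in Cre at D0, 4h, D2 and D7, against 2.62, 134, 75.0 and 25.1 RPKM in Vec. Serpina3n made up 77.9% of the sum in Cre 4h and 71.7% in Vec 4h, and 60.7% in Cre D2 and 70.5% in Vec D2. At D7 its share was 19.7% in Cre and 17.5% in Vec, and Serpina3c was then the highest of the cluster, at 319% of the level of Serpina3n in Cre and 421% in Vec. The leading gene of the cluster thus changed with time in both genotypes.

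Serpina3m followed Serpina3n as a near-constant share in 3 of the 4 libraries of 4h and D2. It stood at 22.3% of the RPKM of Serpina3n in Cre D2, at 24.2% in Vec D2 and at 24.2% in Vec 4h, but at 8.14% in Cre 4h, where it had 9 reads. Serpina3f and Serpina3h, a transcribed pseudogene, had their highest level at 4h in Vec, but at D7 in Cre (1.02 and 0.927 RPKM). For Serpina3h in Cre, D7 could not be told from D0, which had 0.89 RPKM (ratio 1.04, 0.676 to 1.61). Serpina3f had 0.633 RPKM in Cre 4h and 6.51 RPKM in Vec 4h, and Serpina3h had 0.506 and 4.18 RPKM, so that Cre held 9.72% (4.77 to 17.8%) and 12.1% (5.10 to 24.8%) of the Vec levels. Serpina3i and Serpina3k stayed under 1 RPKM in all libraries, with their highest levels in Vec 4h, and Serpina3a, Serpina3b and Serpina3j had at most 6 reads. These genes are close paralogs, and the sources used here do not say where reads that match several of them were put. Reads shared with Serpina3n may therefore be counted for Serpina3m, Serpina3f or Serpina3h.

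**Figure D3:**
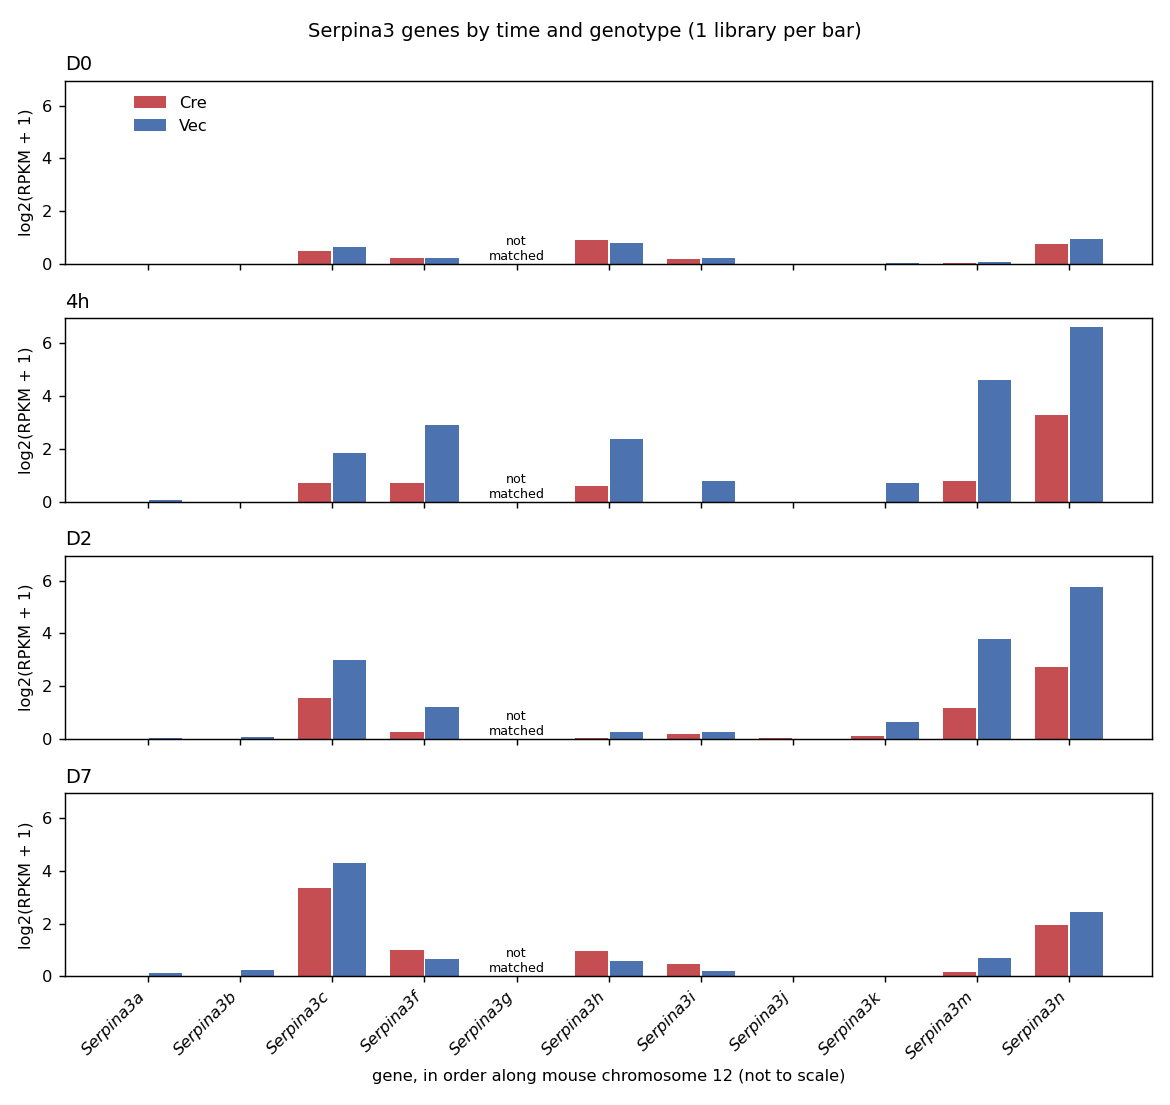
Level in log2(RPKM + 1) (vertical axes) of the Serpina3 genes in their order along chromosome 12 (horizontal axis, not to scale) at D0, 4h, D2 and D7, with Cre bars left of Vec bars and 1 library per bar. Serpina3n is the tallest at 4h and D2 in both genotypes, at 8.65 RPKM in Cre 4h and 96.2 RPKM in Vec 4h, and Serpina3c is the tallest at D7, at 9.17 RPKM in Cre and 18.5 RPKM in Vec.

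Likeness among the genes was described by Pearson's r over the 8 libraries on log2(RPKM + 1), with no test, since the libraries share times and genotypes. Lrg1 and Itih4 had r = 0.996, and Serpina3n and Serpina3m r = 0.97. Lcn2 had r = 0.78 with Serpina3n and 0.81 with Serpina3m. Serpina3c had r = 0.89 with Lrg1, 0.86 with Itih4, and 0.25 with Serpina3n, the gene whose promoter window is nearly its own. Between Serpina3n and Lrg1 r was -0.16. Among 11538 genes, the 3 most like Serpina3m were Tsc22d3 (r = 0.996), Scyl3 (0.992) and Clic4 (0.981). Tsc22d3, a gene that glucocorticoids induce in many cell types, had 18.8 RPKM in Cre 4h and 153 RPKM in Vec 4h. Those most like Serpina3n were Clic4 (0.994), Lamc1 (0.983) and Dph7 (0.979), and those most like Lcn2 were Orc5 (0.982), Tasp1 (0.98) and Ssh2 (0.977). Serpina3c was most like Spon1 (0.968), Tmem205 (0.967) and Alpl (0.946). Lrg1 was most like Tmem179 (0.997), Mlxipl (0.997), a transcription factor of fatty acid synthesis, and Itih4, and Itih4 most like Abcg1 (0.999), Clstn3 (0.997) and Mmd2 (0.996). A high r says nothing of size: Dph7 moved only between 2.15 and 3.01 RPKM.

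Further genes of the acute-phase pathways were tested over time with all 8 libraries in a model whose terms for time and genotype add up (edgeR's quasi-likelihood test, Benjamini-Hochberg adjustment over 12581 genes). The 5 lists of 96 genes leave out the 6 genes above, and 55 of the 96 had enough reads to be tested. The lists were chosen with earlier results of these data known, so their counts stand beside the shares of all genes as a description only. A gene rose or fell when its adjusted p was under 0.05 against D0. At 4h 24 of the 55 rose and 3 fell, against 12.2% and 13.1% of all genes. At D2 12 rose and 17 fell (17.7% and 21.0% of all genes), and at D7 12 rose and 0 fell (5.68% and 2.42%). The 3 times share the D0 libraries. For the 0 at D7, 1 gene was lower at an unadjusted p under 0.05, and DESeq2 and limma also gave 0.

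Of the other acute-phase genes, 10 of the 16 tested rose at D7. Of these 16, out of 27 listed, 2 rose and 1 fell at 4h (12.2% and 13.1% of all genes), and 6 rose and 6 fell at D2 (17.7% and 21.0%). At D7 10 rose and 0 fell (5.68% and 2.42% of all genes). There 0 were lower at an unadjusted p under 0.05, and DESeq2 and limma also gave 0 that fell. DESeq2 gave 6 that rose at 4h, and limma gave 3 that rose at D2. The median log2 change at D7 was 3.87, beside 0.01 over all genes. The filter of at least 1 RPKM in at least 2 libraries shapes this count and this median. It leaves out listed genes that stayed low and lets in genes that are high only late. Orm2, for example, reached 1 RPKM only at D7, at 1.57 RPKM in Cre and 2.55 RPKM in Vec. The 10 that rose at D7 were C3 and Cfb of the complement system, Cp, Hp, Lbp, Orm1, Orm2, Orm3, Serping1 and Steap4. C3 rose by 8.15 on the log2 scale (adjusted p = 0.00377) and had 187 RPKM in Cre D7 and 415 RPKM in Vec D7. Hp, the haemoglobin scavenger haptoglobin, rose by 7.76 (adjusted p = 0.00494), with 93.3 RPKM in Cre D7 and 252 RPKM in Vec D7. Orm1, which encodes an alpha-1-acid glycoprotein, rose by 8.83 (adjusted p = 0.0057), with 15.5 RPKM in Cre D7 and 36.3 RPKM in Vec D7. By the size rule 7 of the 16 with enough reads at D7 were lower in Cre than in Vec, among them Hp (-1.43), C3 (-1.15) and Lbp (-1.54), and 0 were higher, against 3.12% and 1.39% of all genes. At D2, Orm3, Saa3, Hp, Lbp and Ptx3 were lower in Cre and 1 gene, Timp1, was higher, at 38.5 RPKM in Cre D2 and 16.1 RPKM in Vec D2. Of the lower ones, Saa3 had 1.14 RPKM in Cre D2 and 6.52 RPKM in Vec D2, and Hp had 3.76 and 13.3 RPKM. At D7 adipocyte markers also summed lower in Cre, as given above, and their part was not tested.

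**Figure D4:**
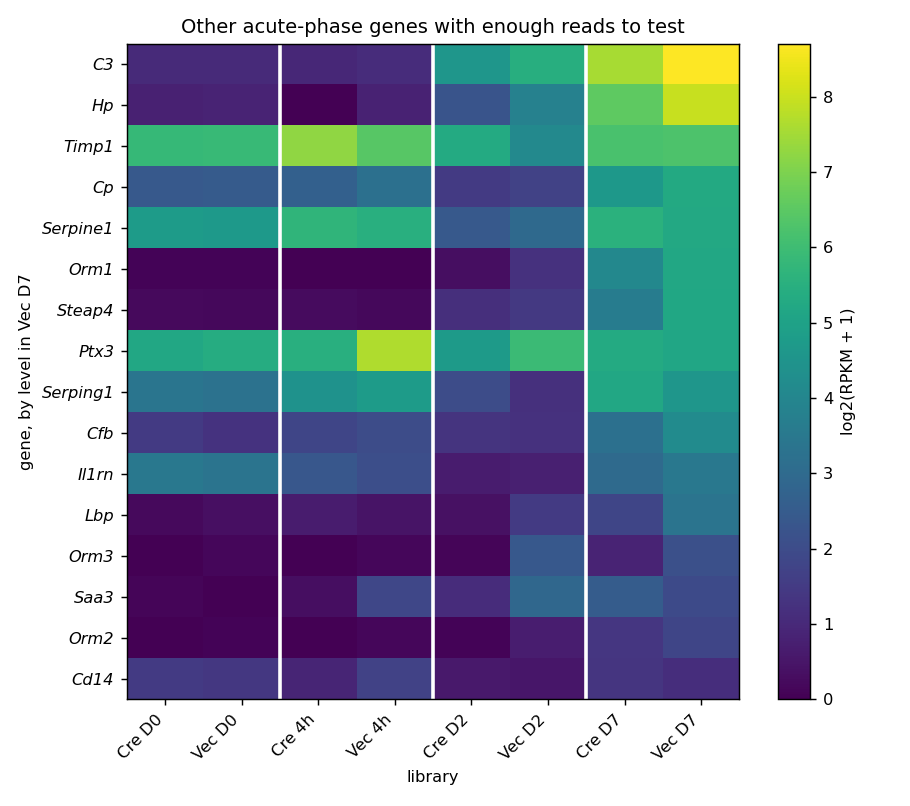
Level in log2(RPKM + 1) (colour) of the 16 tested acute-phase genes outside the 6 described (rows, by their level in Vec D7) in the 8 libraries (columns, Cre left of Vec at each time). C3 and Hp are brightest at D7, at 187 and 93.3 RPKM in Cre and 415 and 252 RPKM in Vec, whereas Ptx3 is brightest in Vec 4h.

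Most of the interleukin-6 and STAT3 genes rose at 4h. Of 15 tested, 11 rose and 1, the kinase gene Tyk2, fell (12.2% and 13.1% of all genes). Il6 itself rose by 3.91 (adjusted p = 0.00641) and had 11.9 RPKM in Cre 4h and 6.15 RPKM in Vec 4h. Socs3, a STAT3 target that damps the pathway, rose by 1.57 (adjusted p = 0.0163), with 20.9 RPKM in Cre 4h and 22.6 RPKM in Vec 4h. Cebpb and Cebpd, transcription factors that act on acute-phase promoters, rose by 2.40 and 2.98 (adjusted p = 0.0128 and 0.0193). Both were lower in Cre at 4h, Cebpb at 85.1 RPKM in Cre and 219.9 RPKM in Vec, and Cebpd at 48.2 RPKM in Cre and 144 RPKM in Vec. The receptor gene Il6ra was also lower in Cre 4h, at 2.87 RPKM against 11.9 RPKM in Vec 4h, and Clcf1 was higher, at 32.0 RPKM in Cre 4h against 12.5 RPKM in Vec 4h. At D2 1 of the 15 rose and 4 fell (17.7% and 21.0% of all genes). At D7 0 rose and 0 fell (5.68% and 2.42% of all genes), with 2 higher and 0 lower at an unadjusted p under 0.05 (0 and 0 adjusted with DESeq2 and limma).

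Of 11 tested interleukin-1 and NF-kB genes, 4 rose at 4h (Il1r1, Myd88, Nfkb1 and Nfkbiz) and Rela fell, against 12.2% and 13.1% of all genes. Il1r1, the interleukin-1 receptor, rose by 1.70 (adjusted p = 0.00684), with 67.7 RPKM in Cre 4h and 79.8 RPKM in Vec 4h. Nfkbia, the NF-kB inhibitor and a known glucocorticoid target, had 21.2 RPKM in Cre 4h and 58.7 RPKM in Vec 4h, and its adjusted p over both genotypes was 0.0753. At D2 3 of the 11 rose and 3 fell (17.7% and 21.0% of all genes), and at D7 Myd88 alone rose (5.68% of all genes). The ligand genes Il1b and Tnf had at most 0.025 RPKM in any library.

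Of the genes listed as partners of these proteins or of others in their families, 6 of 12 tested rose at 4h (12.2% of all genes). At D2 2 of them rose and 4 fell (17.7% and 21.0% of all genes), and at D7 1 rose (5.68%). The partners of the inter-alpha-trypsin family led at 4h: Has1 and Has2, which make hyaluronan, rose by 3.89 and 2.05 (adjusted p = 0.00703 and 0.0211) and Tnfaip6, which moves heavy chains onto hyaluronan, by 2.81 (adjusted p = 0.00751). Has1 had 25.2 RPKM in Cre 4h and 39.7 RPKM in Vec 4h, and Has2 43.3 and 17.0 RPKM. Itih5, another heavy chain, rose by 3.65 at D7 (adjusted p = 0.02), to 1.53 RPKM in Cre D7 and 4.45 RPKM in Vec D7. It passed the filter through these D7 libraries alone. Itih2 fell by 3.01 at D2 (adjusted p = 0.00216), and Itih1, Itih3 and Ambp, the gene of bikunin, stayed at or under 0.0468 RPKM. The Lcn2 receptor gene Slc22a17 lay between 2.67 and 7.26 RPKM in all libraries and rose by 0.67 at D2 (adjusted p = 0.0474), and Mmp9, whose product binds lipocalin 2, stayed at or under 0.516 RPKM. Among receptors that Lrg1 acts on, Acvrl1 fell by 2.93 at D2 (adjusted p = 0.00474) and Eng by 0.86 (adjusted p = 0.0171). Of the other TGF-beta receptor genes on the list, Tgfbr1 rose at 4h and did not pass at D2, and Tgfbr2 passed at neither time. Tgfbr1 had 17.4 RPKM in Cre D2 and 14.1 RPKM in Vec D2, against 9.53 RPKM in Cre D0 and 9.87 RPKM in Vec D0. Of the other Serpina genes Serpina3f alone had enough reads, and it rose by 4.21 at 4h (adjusted p = 0.0439).

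These calls over time rest on the D0 libraries, and leaving out either one leaves D0 with a single library. The calls among all genes were then lost as well at 4h and D7 without Vec D0. They also dropped at each time without Cre D0, at 4h without Vec 4h and at D2 without either D2 library. These losses are therefore not particular to the listed genes. Without Vec D0, 0 of the 55 rose and 0 fell at 4h and at D7, although 24 and 12 were then higher at an unadjusted p under 0.05, and 1 rose and 5 fell at D2. Without Cre D0 the counts were 6 and 0 at 4h, 6 and 9 at D2, and 5 and 0 at D7, and without Vec 4h 3 rose at 4h, Il1r1, Nfkbiz and Has1. Without Vec D2 4 rose and 5 fell at D2, and without Cre D2 8 rose and 9 fell. Of the single genes named, Has2, Myd88, Tyk2 and Nfkb1 missed the threshold at 4h also without Cre 4h, and Serpina3f, Nfkb1 and, at D7, Orm3 also with limma. Lbp missed it at D7 without Vec D7, and Serping1 without either D7 library. Serpina3f missed it also without either D2 library, Orm3 without either 4h library, and Serping1 with a filter at 5 RPKM. Myd88 at D7 missed it whichever single library was left out, and at D2 Slc22a17 missed it without either D2 or either D7 library and Eng without either D2 library.

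Over all 5 lists, by the size rule 9 of 50 genes were lower in Cre at 4h and 2 were higher (2.59% and 1.65% of all genes). At D2 6 of 48 were lower and 1 higher (1.54% and 2.55%), and at D7 8 of 55 were lower and 0 higher (3.12% and 1.39%). Their median differences were -0.08, 0.05 and 0.15, beside 0.11, -0.04 and 0.03 over all genes.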

How the data were processed

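Messenger RNA had been purified and sequenced in 8 libraries, 1 per genotype and time. The labels list 30 samples, and the 22 ChIP samples among them were not used here. The authors deposited a read count and an RPKM value per RefSeq transcript for each library, per the file headers. The submitters' processing notes name the assembly mm9, SICER and CASAVA 1.8.2. The sources used here do not give the RNA aligner or counter. Totals recovered from count and RPKM ran from 7.7 to 28.9 M reads.

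Of 29082 accessions 28436 (97.8%) matched a symbol in a RefSeq gene table (GRCm38.p6, used for names and gene order), and 646 did not. Each gene was represented by its accession with most reads in all, which left 23109 genes or unmatched accessions. Deposited counts gave exact conditional binomial (Clopper-Pearson) intervals of ratios and exact Poisson intervals of levels (SciPy 1.17.1), at 95%, and a floor of 3 reads per library. Intervals and floors cover counting error only, and reads without molecular identifiers are not independent molecules. Genotypes and times were compared by size on log2(RPKM + 1), with a pseudocount of 1, a threshold of 1 and at least 1 RPKM in at least 1 of both libraries, a scale that understates changes of low genes.

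The 7 genes and the lists were chosen with earlier results of these data known. Genes named are these 7, Nr3c1, the lists' genes and markers, and for each of the 6 matched genes the 3 with the highest Pearson's r. Lists were tested in edgeR 4.0.16 (R 4.3.3; quasi-likelihood, TMM, additive in time and genotype, Benjamini-Hochberg) over 12581 genes with at least 1 RPKM in at least 2 libraries. With 1 library per group the interaction serves as error, so p-values measure the spread over these libraries and not between independent cultures. On simulated counts of the comparison of 4h with D0 over 12581 genes, this recovered 99% of 4-fold and 53% of 2-fold changes, with 3.2% false among the calls. The simulated counts had the same dispersion for all genes and no interaction of genotype and time, so these rates need not hold for the real libraries. Alternatives were pseudocounts of 0.1 and 5, other filters and scalings, limma 3.58.1, DESeq2 1.42.0, and leaving out each library. Promoters were read from the RefSeq promoter table and aligned with Biopython 1.88.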

Additional observations from a re-analysis of the deposited data

Results flagged for a closer look

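Of the 96 genes of the pathway lists, 4 moved in opposite directions in the 2 genotypes between the same times, beyond counting error in each, on log2(RPKM + 1). The share of all genes that did so was not determined, so nothing is read from this count. With 1 library per group, none of these differences between genotypes was tested. Il6ra, a receptor chain for interleukin-6, was lower at 4h than at D0 in Cre (-1.13) and higher in Vec (0.74). The other 3 concern D7 against D2. Serpina3f, of the Serpina3 cluster, was higher at D7 in Cre (0.73) and lower in Vec (-0.53). Saa3, a serum amyloid A gene, was higher at D7 in Cre (1.44) and lower in Vec (-0.97). Ptx3, which encodes a long pentraxin of innate immunity, was higher at D7 in Cre (0.57) and lower in Vec (-0.78).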

How the results depend on the processing

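No paired analysis was possible because the labels give the RNA libraries no replicate numbers and each genotype and time has 1 library, although the list model does set times against each other within genotypes. Called differences of the 6 genes between Cre and Vec and between neighbouring times, each recomputed under 7 alternatives, gave 203 values, of which 0 changed sign and 170 stayed within the counting interval. Pseudocounts and filters keep the sign of a difference, and the scalings moved no library by more than 0.123 on the log2 scale. The 0 thus says little of robustness. With a pseudocount of 0.1, 4 of the 6 genes were lower in Cre at D7 rather than 2, 2 rather than 1 were higher at D2 than at 4h in Cre, and 2 rather than 1 were lower at D7 than at D2 in Cre. With a pseudocount of 5, 2 rather than 4 were lower in Cre at 4h, 0 rather than 1 higher at D2 than at 4h in Cre, 0 rather than 1 lower at D7 than at D2 in Cre, in Vec 2 rather than 4 higher at 4h than at D0 and 1 rather than 3 higher at D2 than at 4h. Counts that moved less were 5 and 3 rather than 4 lower in Cre at D2 with pseudocounts of 0.1 and 5, and 2 rather than 3 higher at D7 than at D2 in Vec with a pseudocount of 5; the filter at 5 RPKM gave 2 rather than 3 higher at D2 than at 4h in Vec. With either TMM or median of ratios scaling, 0 rather than 1 were lower at D7 than at D2 in Cre and 2 rather than 0 lower at D2 than at 4h in Vec; these scalings moved all values of Vec 4h by 0.123 and 0.119 on the log2 scale. A filter at 5 RPKM left fewer genes, with 2 lower in Cre at 4h, 0 higher at D2 than at 4h in Cre, 0 lower at D7 than at D2 in Cre and 2 higher at 4h than at D0 in Vec. In the lists, this filter left 43 genes, of which 7 rose at D7. Leaving out 1 library at a time, 0 to 24 list genes rose and 0 to 3 fell at 4h, 1 to 14 rose and 5 to 16 fell at D2, and 0 to 13 rose and 0 fell at D7. Calls among all genes also dropped without either D0 library, so these ranges are not particular to the lists. Pseudocounts and filters act on genes with few reads, and the cause of the other changes was not tested. Depth limits Lcn2, Lrg1 and Itih4 at D0 and 4h, and Lcn2 and Serpina3m at D7.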
